A study of Auxenochlorella pyrenoidosa with 18 samples.

Results

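The stretches described here are the gaps of at least 10 kb between neighbouring predicted gene models of Auxenochlorella pyrenoidosa (strain FACHB-9), a unicellular green alga. They were found by sorting the deposited gene models by start on each scaffold (an assembled piece of the genome) and taking each next start minus the highest end so far minus 1. Of 9053 gaps between neighbouring models, 129 reached 10000 bases, a share of 1.42%. The series itself holds 18 RNA-seq libraries of whole cells in 6 groups of 3. The heterotrophic groups were labelled 0, 24 and 72 h, and the cultures grew on glucose with urea as nitrogen source. The phototrophic groups were labelled 2, 8 and 24 h and came from cultures diluted once the glucose was used up and then moved into light. All groups share the strain, and the files analysed here hold no values of single libraries. No expression was therefore compared, and the positions of the gene models are the data.

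A gene model here is a gene predicted from the genome by AUGUSTUS, with its exons, introns, coding sequence and, where predicted, untranslated ends. A gene-free stretch is therefore one without a predicted protein-coding model. In plant and algal genomes such stretches can hold promoters, transposable elements, other repeats and genes for RNAs that are not translated, and in places centromeres or repeats close to telomeres. Neighbouring genes can lie on the same strand, face each other with their starts (divergent, with both promoters in the gap) or face each other with their ends (convergent, with both transcript ends in the gap). No genome sequence was used here, so the bases within the stretches, including any undetermined ones, were not analysed here. All results are descriptions without a test, because gaps and gene models of 1 annotation are not replicates of a condition. A 95% Wilson interval beside a share counts gaps or models as independent, although neighbours on a scaffold are not, and covers counting error only. Differences are also given as the mean ± SD over the 22 scaffolds with at least 3 of the stretches. Each of these holds only 3 to 9, so this SD includes counting error as well as any difference between scaffolds. It describes single scaffolds and does not measure how precisely their mean is known.

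The 129 stretches spanned 1745985 bases in all, 11.8% of the 14801912 bases between neighbouring models. Their lengths ran from 10006 to 41056 bases with a median of 12206 (25th to 75th percentile 10735 to 14576), against a median of 525 bases over all gaps. Most were only a little longer than the threshold: 102 measured under 15000 bases, 19 measured 15000 to under 20000 and 8 measured 20000 or more (0.0884% of all gaps). Gap counts fell steadily across the threshold, with 563 gaps of 5000 to under 7500 bases, 206 from there to 10000, 70 of 10000 to under 12500 and 32 from there to 15000. The stretches thus form the upper tail of 1 falling series of lengths, next to the 769 gaps of 5000 to under 10000 bases. The 3 shortest were those between g9116 and g9117 (10006 bases), g2255 and g2256 (10056 bases) and g6733 and g6734 (10076 bases). The 3 gaps just under the threshold measured 9962 bases (g6284 to g6285), 9965 bases (g7298 to g7299) and 9976 bases (g6392 to g6393).

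**Figure D1:**
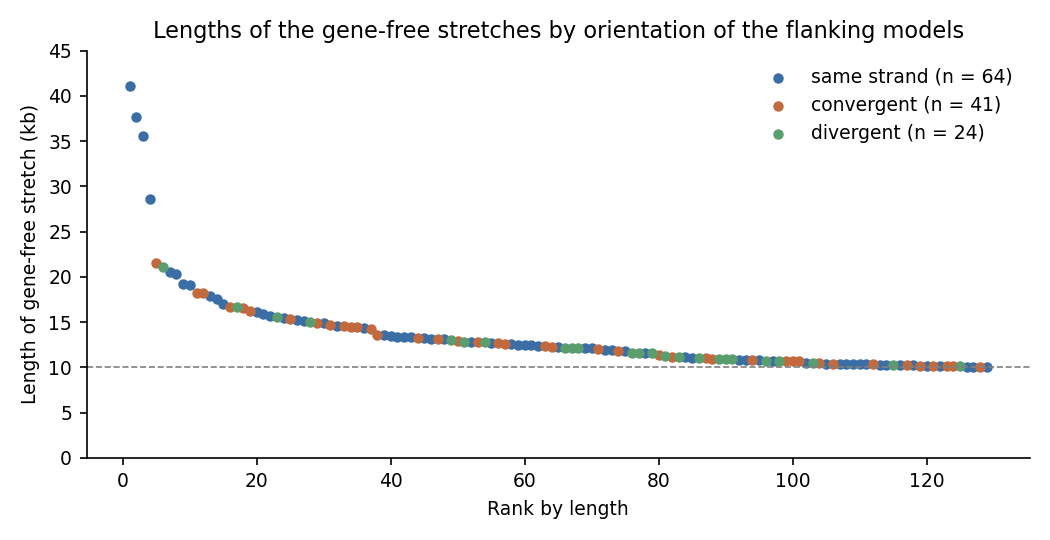
Length in kb of each of the 129 gene-free stretches, ordered from the longest, with colours for the orientation of the flanking models and a dashed line at 10 kb. The 4 longest, between 28.6 and 41.1 kb, all lie between models on the same strand, and 102 points lie under 15 kb.

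The 4 longest stretches stood apart from the other 125 by a step from 28645 to 21565 bases, and all 4 lay between models on the same strand. The longest, of 41056 bases, lay on scaffold00092 between bases 482984 and 524039, between g1157 (7 exons) and g1158 (27 exons) on the minus strand. The next, of 37725 bases, lay on scaffold00852 between bases 389652 and 427376, between g5942 (25 exons) and g5943 (32 exons) on the plus strand. Model g5943 is the last on its scaffold, so this stretch lay 11021 bases from the annotated end. The one after that, of 35525 bases, lay on scaffold00366 between bases 3790195 and 3825719, between g3469 (4 exons) and g3470 (6 exons) on the plus strand. The last of the 4, of 28645 bases, lay on scaffold00992 between bases 50741 and 79385, between g6720 (15 exons) and g6721 (14 exons) on the plus strand. Together these 4 held 142951 bases, 8.19% of the length of all 129.

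The other 6 of the 10 longest measured 19145 to 21565 bases. Scaffold01168 held 2 of them, one of 21565 bases between the ends of g8582 and g8583 (bases 1038712 to 1060276) and one of 20545 bases between g8455 and g8456 on the plus strand (bases 303513 to 324057). The only divergent pair among the 10 longest was g8182 and g8183 on scaffold01136, whose starts were 21125 bases apart (bases 60101 to 81225). Models g8029 and g8030 on scaffold01082 were 20336 bases apart (bases 273121 to 293456). Models g9141 and g9142 on scaffold01211 were 19206 bases apart (bases 295295 to 314500), and g2839 and g2840 on scaffold00366 were 19145 bases apart (bases 321640 to 340784). All 20 models beside the 10 longest stretches had both a start and a stop codon. Exon number ranged from 4 to 32 among these 20.

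The stretches were spread over 46 scaffolds. Of these, 19 held 1, 5 held 2, 8 held 3 and 14 held 4 or more. Scaffold00366, the scaffold with the longest annotated span (3902483 bases from its first to its last model), held 9. Scaffold00514 and scaffold00992 held 7 each, on spans of 2312524 and 1576648 bases. On the 46 scaffolds the stretches made up 3.71% of the annotated span and 1.66% of the gaps.

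Their number per length of scaffold varied among long scaffolds. The 29 scaffolds with a span of 500 kb and over held 100 of the 129, which is 1.38% of their gaps and 2.34 per Mb. Over these 29, the number per Mb ran from 0 to 4.83 with a median of 2.30. The highest value belonged to scaffold01136 (6 stretches), followed by scaffold01279 (4 stretches, 4.64 per Mb) and scaffold00992 (4.44 per Mb). Scaffold01012, with the second longest span of 2954257 bases, held 3, or 1.02 per Mb. No stretch was found on scaffold00178, scaffold00047 and scaffold00132, which span 1114554, 673268 and 569212 bases. The last of these was also the densest in genes of the 29, with 23.5 models per 100 kb. The 31 scaffolds of 100 to under 500 kb held 28 stretches on 19 of them, or 2.91 per Mb. Over scaffolds of at least 50 kb, leaving the stretches out of the span moved gene density from 16.7 to 17.3 models per 100 kb.

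The stretches lay closer to the annotated scaffold ends than shorter gaps by the median distance, but not by the share within 50 kb. The median distance was 215 kb for the stretches and 288 kb for shorter gaps, and 289 against 400.2 kb on scaffolds of 500 kb and over. Gaps of 5000 to under 10000 bases had medians of 217 kb in all and 345 kb on those long scaffolds. A distance in kb is limited by the span of its scaffold, so these medians also depend on which scaffolds hold the stretches. Of the 129, 18 lay within 50 kb of the first or last annotated base (14.0%, 95% Wilson interval 9.01 to 21%), against 14.5% of shorter gaps. Short scaffolds lie near an end throughout, and on scaffolds of 500 kb and over the shares were 7.0% of 100 stretches (3.43 to 13.7%) and 6.62% of 7141 shorter gaps. Within 100 kb of an end they were 16% (10.1 to 24.4%) and 13%. The stretch closest to an end lay on scaffold00789, between its only models g5655 and g5656 (11205 bases, 1164 bases from the last annotated base). The next were g5624 to g5625 on scaffold00760, 4154 bases from the end, and g8059 to g8060 on scaffold01094, 4670 bases from the start.

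Counted as a share of the scaffold, the outer parts held more of them in the pooled count, but in only 13 of 26 scaffolds. On scaffolds of 500 kb and over, 30 of 100 stretches had their midpoint in the outer 10% of the span at either end (30.0%, 95% Wilson interval 21.9 to 39.6%), against 19% of shorter gaps (18.1 to 19.9%). Without scaffold00366 the share was 26.4% (18.4 to 36.3%) against 19.2%, so the lower bound then included the share of shorter gaps. The 30 lay on 13 of the 26 scaffolds, and the other 13 scaffolds had none there. Further in there was no even fall: the next classes of 10% from either end held 19, 15, 24 and 12 of the 100, against 20 to 20.7% of shorter gaps in each. On scaffold00012, which spans 2794055 bases, all 6 stretches lay before base 497330, the farthest between g119 and g120. On scaffold00366, 4 of the 9 lay before base 452303 and 3 lay after base 3668374.

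**Figure D2:**
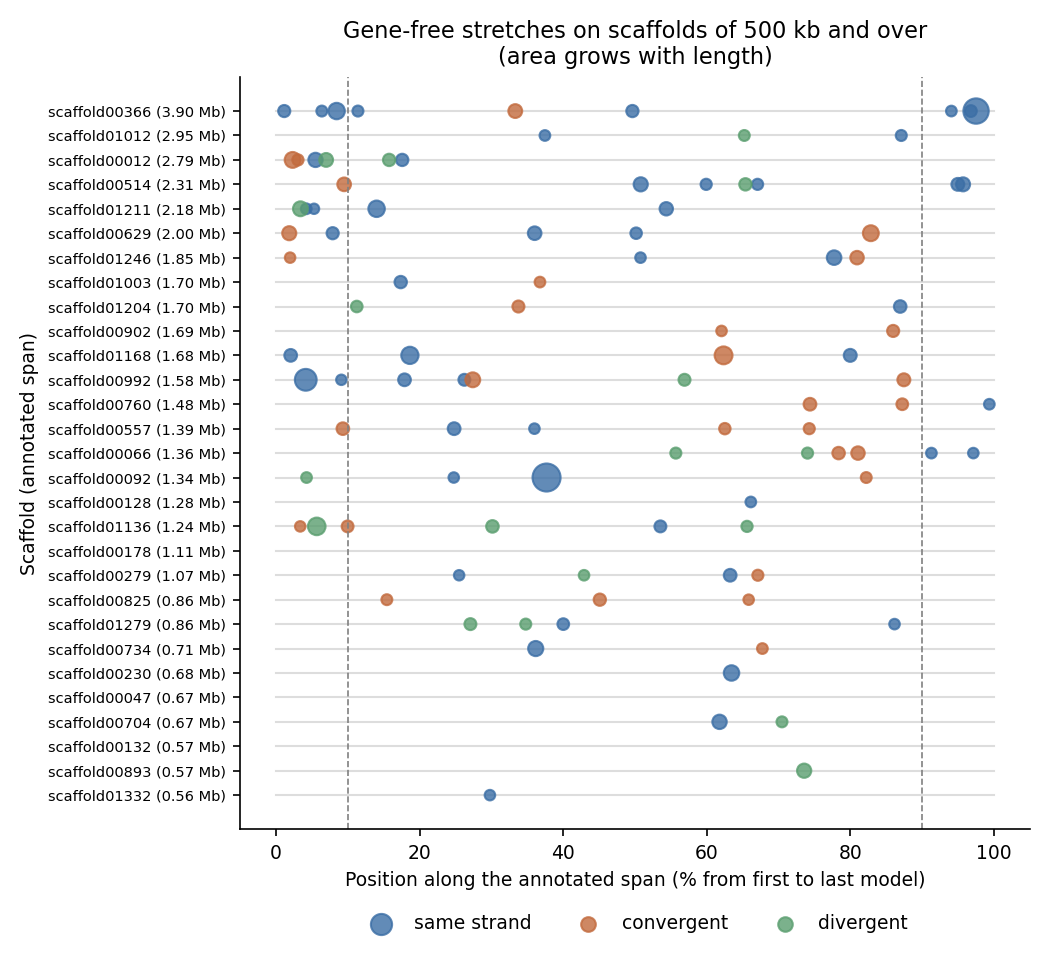
Midpoint of each of 100 gene-free stretches along the 29 scaffolds that span at least 500 kb, as a percentage of the span, ordered by span, with dashed lines at 10% from either end. Point area grows with length and colour gives the orientation of the flanking models. Of the 100 points, 30 lie outside the dashed lines, on 13 scaffolds, and 3 scaffolds carry none.

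Stretches followed each other closely in a few places. Among 83 successive stretches on the same scaffold, the median distance was 168879 bases with 25 models between them, and the range ran from 2525 to 1722521 bases. Under 50 kb apart were 21 of the 83 (25.3%). No such share was taken for other gaps, so whether it is high was not tested. Pairs with at most 3 models between them numbered 8, on 7 scaffolds. A single model separated 3 pairs. Model g4082 (scaffold00514, bases 2203100 to 2205624, 8 exons) lay between stretches of 13505 and 15245 bases. Model g6776 (scaffold00992, bases 419643 to 423637, 16 exons) lay between stretches of 12097 and 16602 bases, and g9114 (scaffold01211, bases 82616 to 86682, 10 exons) between stretches of 16645 and 10463 bases. All 3 were complete models on the plus strand. After g9114, 2 models were followed by another stretch, of 10006 bases. The longest of the 8 pairs was on scaffold00366, where g3468, g3469 and the gap between them took 4564 bases between stretches of 11936 and 35525 bases.

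The gaps around a stretch were somewhat longer than usual. The 254 gaps next to a stretch had a median of 790 bases, against 543 bases over all gaps of the same scaffolds. Of the 254, 40 reached 5000 bases (15.7%, 95% Wilson interval 11.8 to 20.7%), against 10.2% on those scaffolds and 9.92% over all gaps. Those that reached 10000 bases numbered 6 (2.36%, 1.09 to 5.06%), an interval that included the 1.66% of those scaffolds. Up to 10 gaps away the share of gaps of at least 5000 bases ran from 9.91 to 15.7%, and the median gap from 636 to 964 bases. The share of at least 10000 bases ran from 0 of 232 at 9 gaps away, which allows a share of up to 1.29% by the limit of 3 counts (1.63% by the Wilson interval), to 3.38% at 8 gaps away. These gaps share scaffolds, and some were counted from more than 1 stretch. A pair of stretches was counted from both sides, so the 6 next to a stretch come from the 3 pairs with a single model between them. The intervals and limits for 10000 bases treat such counts as independent and are therefore too narrow.

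The orientation of the flanking models matched that of other wide gaps more than that of close neighbours. Of the 129 pairs, 64 lay on the same strand (49.6%, 95% Wilson interval 41.1 to 58.1%), 41 were convergent (31.8%, 24.4 to 40.2%) and 24 were divergent (18.6%, 12.8 to 26.2%). The shorter gaps had 35.7% same-strand, 32.2% convergent and 32.1% divergent pairs. Same-strand pairs were therefore 13.9 percentage points more frequent and divergent pairs less frequent at the stretches, while the interval of the convergent share included that of shorter gaps. Gaps of 5000 to under 10000 bases had shares of 50.5, 31.1 and 18.5%, each within the interval of the stretches, and gaps of 3000 to under 5000 bases had 51.9, 28.2 and 19.9%. The shares thus stayed close from 3000 bases upward. From 500 to under 1000 bases, by contrast, 42.5% were same-strand, 18.8% convergent and 38.6% divergent.

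**Figure D3:**
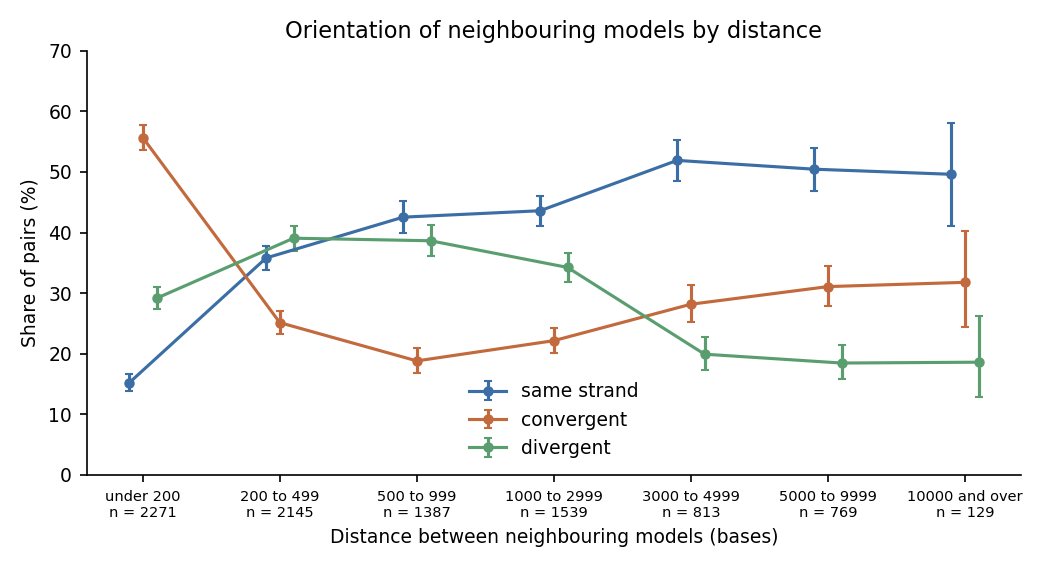
Share of neighbouring pairs on the same strand, convergent and divergent, in percent, by distance between the models, with 95% Wilson intervals and the number of pairs in each class. From 3000 bases upward the 3 shares keep their order, and in the class of 10000 bases and over they are 49.6, 31.8 and 18.6%.

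Read the other way, 1.97% of same-strand gaps reached 10000 bases (64 of 3248, 95% Wilson interval 1.55 to 2.51%), 1.41% of convergent gaps (41 of 2914, 1.04 to 1.90%) and 0.830% of divergent gaps (24 of 2891, 0.559 to 1.23%). The intervals of same-strand and divergent gaps did not overlap. Of the 64 same-strand pairs, 32 lay on the plus and 32 on the minus strand. Among the 27 stretches of 15000 bases and over, 17 were same-strand (63.0%, 44.2 to 78.5%), with an interval that included the 46.1% of the 102 shorter ones. Scaffold00366 contributed 8 same-strand pairs and 1 convergent pair, and without it the same-strand share was 46.7%. The same-strand share exceeded that of shorter gaps on the same scaffold in 15 of 22 scaffolds. The mean difference over the 22 was 9.51 ± 26.8 percentage points (SD, n = 22 scaffolds). Each of the 22 holds only 3 to 9 stretches, so this SD includes counting error and cannot show whether scaffolds differ in orientation. The divergent share was lower in 16 of the 22, with a mean difference of -13.1 ± 18.1 points. Both mean differences were smaller than the SD of single scaffolds, which is not the uncertainty of the mean.

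Nearly all models beside the stretches had both ends of the coding sequence predicted. The 129 stretches had 255 flanking models, since 3 models flanked 2 stretches. A start and a stop codon were present in 254 of the 255 (99.6%, 95% Wilson interval 97.8 to 99.9%). Models beside only shorter gaps were complete in 94.1% of 9141 cases over all scaffolds, but in 99.5% of 7580 on the scaffolds that hold a stretch. Beside the models of their own scaffolds, the flanking models differed in completeness by less than the interval. On those scaffolds nearly every model had both codons, so the measure cannot show whether a model is a part of a longer gene.

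Exon number and coding length differed little. Flanking models had 10.8 ± 7.90 exons (SD, n = 255 models), against 10.4 ± 7.61 (SD, n = 7580) for models beside shorter gaps on the same scaffolds, with a median of 8 in both. Within scaffolds the difference was 0.503 ± 2.45 exons (SD, n = 22 scaffolds), above 0 in 11 and below 0 in 11. The median coding length was 1044 bases beside the stretches and 1146 bases beside shorter gaps of those scaffolds. The ratio of medians within scaffolds was 0.996 ± 0.320 (SD, n = 22) and lay under 1 in 14. Models with 25 or more exons made up 8.24% of flanking models (21 of 255, 95% Wilson interval 5.45 to 12.3%), against 5.04% (4.57 to 5.56%) of the others on those scaffolds. More than 1 transcript was predicted for 5 of the 255 (1.96%, 0.840 to 4.51%), close to the 1.79% of the others. No intron in the coding sequence was found in 3 of the 255 (1.18%, 0.401 to 3.40%), against 1.11%.

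Introns were longer beside the stretches by a small margin. The 2380 coding introns of flanking models had a median of 224 bases (25th to 75th percentile 176 to 295), against 207 bases (165 to 267) for 67977 introns of models beside shorter gaps on the same scaffolds. By the wider of the gaps beside a model, the median was 203 or 204 bases in the classes under 3000 bases, 213 at 3000 to under 5000 and 218 at 5000 to under 10000. Within scaffolds the ratio of medians was 1.07 ± 0.0876 (SD, n = 22) and exceeded 1 in 18. The mean excess was smaller than the SD of single scaffolds, which is not the uncertainty of the mean. In each of 5 classes of exon number the median intron was longer beside the stretches, from 216 against 212 bases at 5 to 8 exons to 232.5 against 209 at 13 to 20 exons. Single introns of 1000 bases or more were no more frequent there, in 11% of flanking models (7.71 to 15.4%) and 13.9% of the others (13.1 to 14.7%). The quartiles moved together with the median.

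The longer introns were not limited to the flanking models. Models 1 to 4 places away from a flanking model had medians of 214 to 222 bases, and those 10 to 19 places away 213 bases. The median reached 200 bases in models 40 or more places away. The medians between did not fall evenly from one distance to the next. They pool scaffolds and were not taken within scaffolds, so distance cannot be told apart here from differences between scaffolds.

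The gene score was lower in the flanking models than in models beside shorter gaps, at the end of a decline with gap width. This score was written by AUGUSTUS for each gene, is deposited without a description and is treated here as a number without a fixed range. Its mean was 0.108 ± 0.110 (SD, n = 255) beside the stretches and 0.137 ± 0.134 (SD, n = 7580) beside shorter gaps of the same scaffolds, with medians of 0.07 and 0.09. By the wider of the gaps beside a model, the mean was 0.161 under 500 bases, 0.117 at 3000 to under 5000 and 0.119 at 5000 to under 10000, with medians of 0.11, 0.08 and 0.08. A score of at most 0.05 was given to 112 of 255 flanking models (43.9%, 95% Wilson interval 38.0 to 50.1%), against 31.2% of the others (30.1 to 32.2%). Only 32.1% of the 240 models that were next to a flanking model had so low a score (26.5 to 38.2%), and 30.3% of those 40 or more places away did. This share was not taken for single gap widths. The 25th percentile of the score was 0.03 beside the stretches and 0.04 in both classes from 3000 to under 10000 bases. Among models beside shorter gaps the mean score fell with exon number, and in all 5 classes of exon number its mean was lower beside the stretches, from 0.107 against 0.166 at 1 to 4 exons to 0.0647 against 0.0759 at 21 or more. Within scaffolds the difference was -0.0308 ± 0.0409 (SD, n = 22), below 0 in 17. The mean difference was smaller in size than the SD of single scaffolds, which is not the uncertainty of the mean. The mean score of the coding segments differed hardly at all, at 0.935 ± 0.123 and 0.937 ± 0.0968. Over all scaffolds the difference was -0.00159, and -0.00639 without models that had any score above 1, of which 2 flanked a stretch.

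**Figure D4:**
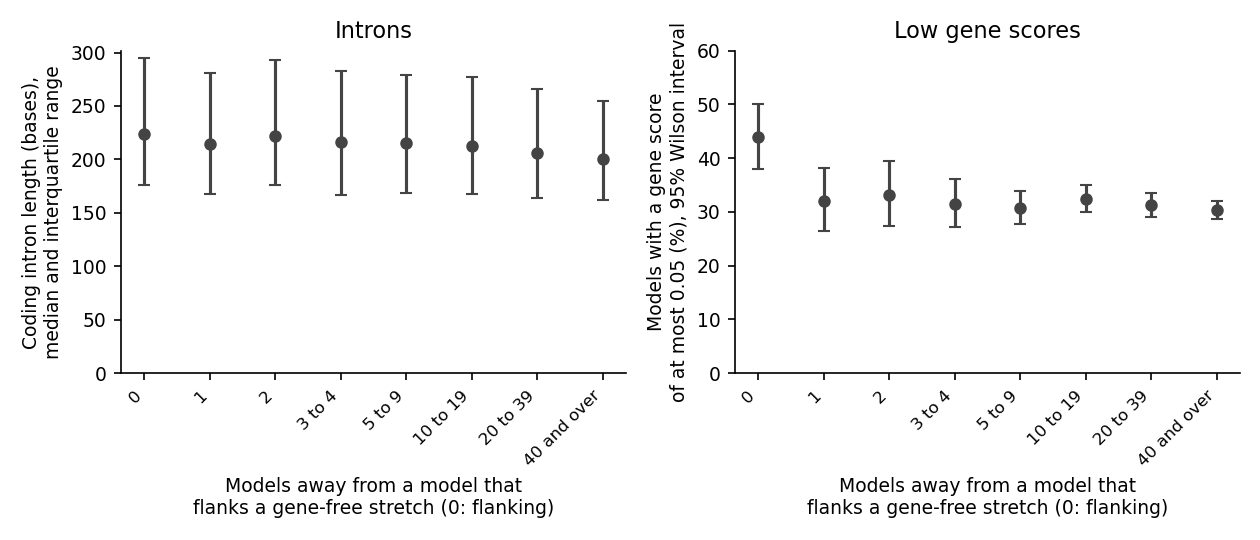
Left, median coding intron length in bases with the interquartile range. Right, the share of models with a gene score of at most 0.05 in percent with 95% Wilson intervals. Both are shown by how many places a model lies from the nearest one that flanks a gene-free stretch (0 is a flanking model itself, 1 the model next to it). The median intron goes from 224 bases at 0 to 200 bases at the farthest models, while the share of low scores is 43.9% at 0 and 30.3 to 33.2% in the other distance classes. Those classes mix models beside gaps of every width under 10000 bases, and all classes pool scaffolds.

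Of the 258 model ends that face a stretch, 146 were 3' ends and 112 were 5' ends, and a transcript end was predicted for all 258. The predicted 3' untranslated ends that faced a stretch were shorter than those that faced shorter gaps. Measured on the genome from the stop codon to the transcript end, introns included, their median was 95 bases (25th to 75th percentile 49.25 to 244), against 151 bases (76 to 279) for 7627 3' ends that faced shorter gaps on the same scaffolds. By gap length the median was 165 bases at gaps under 200 bases, 136.5 at 1000 to under 3000, 107 at 3000 to under 5000 and 114 at 5000 to under 10000. Under 100 bases were 74 of 146 (50.7%, 95% Wilson interval 42.7 to 58.7%), against 33.4% (32.4 to 34.5%). Gaps of 3000 to under 5000 bases had 47.4% and those of 5000 to under 10000 had 44.3%, both inside the interval of the stretches. The share was 48.4% at same-strand stretches (36.6 to 60.4%), against 48.7% at same-strand gaps of 5000 to under 10000 bases over all scaffolds. It was 52.4% at convergent stretches (41.8 to 62.9%), against 41.3%. On 20 scaffolds with at least 3 such ends, the median was below that of shorter gaps in 14 and above it in 6, with ratios from 0.209 to 3.91. The longest ends did not follow the median: 3' ends of at least 1000 bases made up 3.42% of those facing a stretch (1.47 to 7.77%) and 2.01% of the others. The predicted 5' ends showed no such fall, with a median of 97 bases at the stretches (49 to 254.75, n = 112) and 89 bases at shorter gaps (46 to 234).

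**Figure D5:**
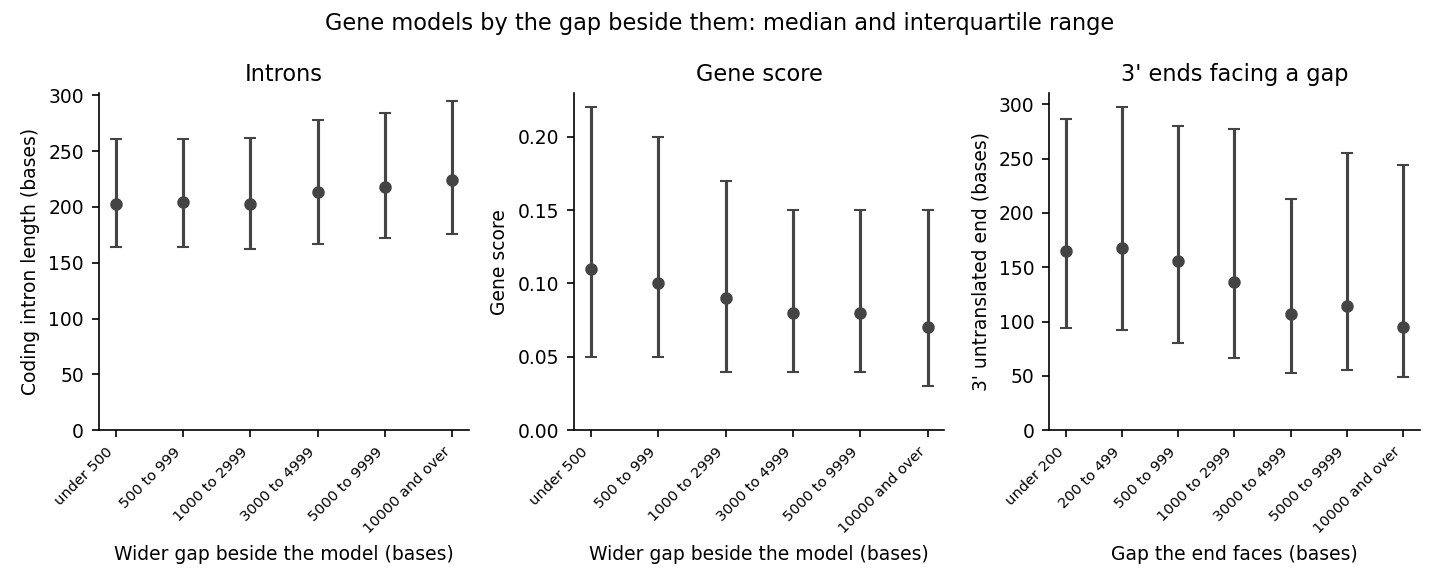
Coding intron length in bases and gene score by the wider of the gaps beside a model, and length in bases of the 3' untranslated end by the gap it faces, on the 46 scaffolds that hold a gene-free stretch. Points are medians and bars the interquartile range over introns, models or ends. In the class of 10000 bases and over the medians are 224 bases, 0.07 and 95 bases.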

How the data were processed

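The libraries were made from total RNA with a TruSeq kit, per the labels' protocols, and TopHat 1.3.3 with Cufflinks is listed in the submitters' processing notes, but the table analysed here holds gene models only. It names AUGUSTUS as its source, per the file's second column. For the version, the evidence and the assembly, nothing is given in the sources used here. Positions count from 1, and the score is that deposited by the authors for genes and coding segments, without a description. Depth per library is unknown here.

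Where a gene had several transcripts, the one with most coding bases stood for it, and introns are the gaps between its coding segments. Analysis used Python 3.11.15, NumPy 2.4.6, pandas 2.3.3, SciPy 1.17.1 and Matplotlib 3.10.9, and the code was tested on simulated gene models. Models that flank a stretch were compared with models beside shorter gaps only. The 888 models alone on a scaffold have no gap. Named in the text are the 10 longest stretches, the 3 on each side of the threshold, the 3 scaffolds with the most, the models with a stretch on both sides and the stretch closest to an annotated end; the other names illustrate counts and were chosen after their values were seen. The stretches and comparisons were chosen with earlier results of these data known. Up to g10293, 9 identifiers are not among the 10284 models analysed here. None falls between neighbours on 1 scaffold, and all 129 stretches lie between consecutive identifiers. The tests of expression fixed for counts per library were not run.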

Additional observations from a re-analysis of the deposited data

How the results depend on the processing

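Each of 12 results was recomputed under 8 alternatives, and 2 of them under 1 alternative chosen after seeing the data (leaving out the 41 models with a score above 1). Of 98 values, 76 stayed within the spread of the main value (the 95% Wilson interval for a share of stretches, 1 SD between scaffolds for the length share and the flanking models, a factor of 1.5 for the number), 18 moved outside it and 4 changed sign. Most alternatives reuse most of the same models, and 1 SD between scaffolds is wide, so the 76 are weak evidence of stability. The threshold moved most. At 5000 bases there were 898 gaps (9.92% of all) with 46.7% of the intergenic length, and 14.3% of their neighbours were as long. At 20000 bases there were 8 (0.0884%) with 1.53% of the length and 0 of 15 neighbours, which allows a share of up to 20%. The same-strand excess was then 39.2 and the convergent difference -19.7 percentage points, the exon difference 3.52 and the coding length ratio 1.26, a change of sign in 16 models. Leaving out models with a mean coding score under 0.8 opened 240 stretches with 20.1% of the length, since each model left out joins gaps. They then made up 2.84% of all gaps, and 5.52% of their neighbours were as long. The difference in complete models was 4.71 points. That difference was 0.325 points on scaffolds of at least 500 kb, where 7.0% of stretches lay within 50 kb of an end, and 0 without gaps within 50 kb of an end. With complete models only it was 0 by construction, although that value is counted among the 18. Within 100 kb of an end lay 27.1% of all stretches. The convergent difference of -0.411 points was 1.25 without scaffold00366, 0.150 in complete models and 0.378 without gaps near an end. Between coding ends there were 180 stretches, which the factor of 1.5 counts as within the spread. Without scores above 1 the coding score difference was -0.00639 in place of -0.00159. No paired analysis was possible because no value analysed here belongs to a single library.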

Other observations

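The lengths of the stretches ended in certain digits. The last digit was 5 or 6 in 102 of 129 (79.1%, 95% Wilson interval 71.3 to 85.2%), and in 74.3% of 8913 shorter gaps above 0. It depended on orientation. Divergent stretches ended in 5 in 23 of 24 cases, as did 97.9% of shorter divergent gaps. Convergent stretches ended in 6 in 26 of 41 cases (63.4%, 48.1 to 76.4%), against 52.8% of shorter ones. Same-strand stretches ended in 5 in 23 and in 6 in 27 of 64 cases. Nearly all of those ending in 5 lay between models on the plus strand, and nearly all ending in 6 between models on the minus strand. The predicted transcript ends that bound a gap therefore do not take every position equally often, and the source of the pattern was not tested.

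Model g6776, alone between 2 stretches, had a mean coding score of 1.94 and 2 predicted transcripts. It was 1 of 2 flanking models with a score above 1. Both had more than 1 transcript, as did 34 of the 41 such models in the annotation.

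On scaffold01039 and scaffold01042 the first model analysed here started only at bases 76457 and 86537. Such leading parts lie outside the rule. By the numbering, some of the absent identifiers fall before the first model of scaffold01042, so its leading part cannot be called gene-free. Scaffold01042 held 3 stretches, and their distance from the annotated start counts from that first model.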
